A study of Macaca radiata with 6 samples.

Results

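The matrix metalloproteinases (MMPs), the ADAM and ADAMTS proteases, the ADAMTS-like proteins and the tissue inhibitors of metalloproteinases (TIMPs) were followed in the primate corpus luteum after prostaglandin F2-alpha (PGF2alpha). Members were all probe sets of the expression table whose single annotated gene symbol was MMP, ADAM, ADAMTS, ADAMTSL or TIMP followed by a number. There were 110 such probe sets of 55 genes, out of 52865 probe sets in the table and 24956 with a single gene symbol. The choice used symbols and no measured value, but it was made with earlier results of these data known. By family, 37 probe sets belonged to 22 MMP genes, 22 to 9 ADAM genes, 36 to 17 ADAMTS genes, 9 to 4 ADAMTSL genes and 6 to TIMP1, TIMP2 and TIMP3. No probe set was named here for TIMP4, ADAM8, ADAM17 or ADAM28, so these genes are not analysed here.

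The corpus luteum is the ovarian gland that forms after ovulation and secretes progesterone. Female bonnet monkeys (Macaca radiata) on day 10 of the luteal phase received 3 intramuscular injections of PGF2alpha at 59 µg/kg body weight or phosphate-buffered saline as vehicle, and the gland was removed 24 h later. Each group had 3 arrays of the Affymetrix Rhesus type, PGF2alpha replicates 1 to 3 and vehicle replicates 4 to 6. The labels name 3 monkeys per group without tying an array to an animal, and they give neither age nor strain, so the p-values cover the spread over 6 arrays, which may be technical. The array was designed on the rhesus macaque, a related species.

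MMPs are secreted or membrane-bound zinc proteases that cleave collagen, gelatin, elastin and many other matrix proteins, and most are made as inactive precursors. ADAMs are membrane proteins, of which some shed the outer parts of other membrane proteins and some have lost the protease site. ADAMTS proteases are secreted and bind the matrix, where several cleave proteoglycans such as aggrecan and versican and others trim procollagens. TIMPs are small secreted proteins that block MMPs and, in part, ADAMs and ADAMTS proteases. In the ovary these families are known for remodelling of the matrix at ovulation and during regression of the corpus luteum.

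The values are linear signals made with MAS5, whose median per array lay between 115 and 134. Differences are means of log2(signal + 40), PGF2alpha minus vehicle, and understate the change of low genes. The arrays were hybridised in 2 runs, with PGF2alpha replicate 2 and vehicle replicate 4 in run 2 and the other 4 arrays in run 1. The 3-prime to 5-prime control ratio of beta-actin, a measure of RNA quality, was 0.817 (log2) in the PGF2alpha group and 0.788 in the vehicle group (exact permutation test, two-sided, p = 1, where the smallest p for 3 against 3 arrays is 0.1). Among single arrays this ratio was highest in vehicle replicate 5, at 1.17, against 0.619 and 0.576 in vehicle replicates 4 and 6. The treated arrays read 0.791 to 0.831. For GAPDH, another control gene, the ratio of vehicle replicate 5 was 0.493, within the treated range of 0.477 to 0.749. What this does to the member values was not tested. PGF2alpha replicate 3 lay nearest to the vehicle mean of the treated arrays in 8 of the 12 member probe sets that passed the test. The tissue label was checked against luteal markers, and STAR, HSD3B2, CYP19A1, CYP17A1, FDX1, INHA and NR5A1, the 7 luteal markers named on the array, all had a tested probe set. In bulk tissue fewer cells of a type and less RNA per cell cannot be told apart.

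After PGF2alpha, genes of 4 MMPs (MMP1, MMP9, MMP10 and MMP19), of ADAM12 and ADAM18, of ADAMTS3 and of ADAMTSL1 rose, while ADAMTS5 and ADAMTS6 fell and none of the 6 TIMP probe sets passed the test. Of 110 member probe sets, 66 of 40 genes were bright enough to be tested, and 44 were not. Among those tested 12 passed, beside 5.01% of all tested probe sets: 8 probe sets of 8 genes rose (12.1%) and 4 probe sets of 2 genes fell (6.06%) at a limma adjusted p of 0.05. Over all 26944 tested probe sets 3.02% rose and 1.99% fell. The counts changed when 1 array was left out. Of the members 2 rose and 0 fell without PGF2alpha replicate 1, 3 and 0 without replicate 2 and 9 and 7 without replicate 3. Without vehicle replicates 4, 5 and 6 the counts were 4 and 1, 5 and 1, and 4 and 0. Over all tested probe sets 1351 passed with all arrays, and 364, 223, 1903, 619, 633 and 435 with arrays left out in that order. These counts rest on fewer arrays, and the cause of the changes was not tested. The median difference of the tested member probe sets was 0.18, beside -0.03 over all tested probe sets. All 3 treated arrays lay above all 3 vehicle arrays in 20 of the 66 and below them in 11, where 13% and 13.7% of all tested probe sets did so. The filter bears on such counts: 3 probe sets, of MMP1, MMP10 and ADAMTSL1, lay below the median of all vehicle arrays and passed only through the treated arrays, and 2, of MMP16 and ADAMTS18, passed only through the vehicle arrays.

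**Figure D1:**
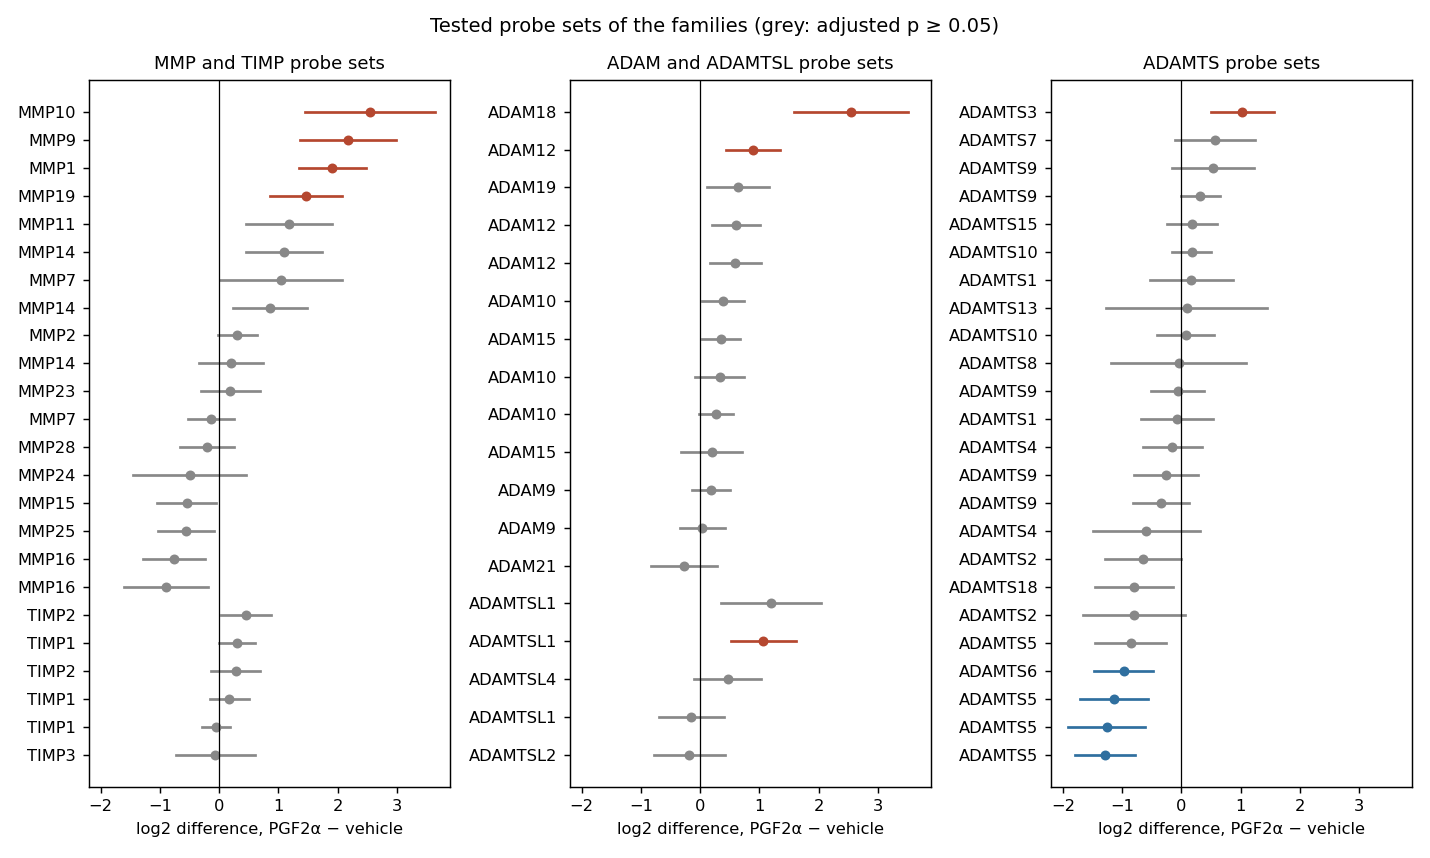
Log2 difference (PGF2alpha minus vehicle, x axis) of each of the 66 tested member probe sets, 1 line per probe set, as the estimate (point) and its 95% limma interval (bar). Red marks the 8 probe sets that rose, blue the 4 that fell and grey those with an adjusted p of 0.05 or more; the blue lines all belong to ADAMTS5 and ADAMTS6.

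Among the collagenases, which cut the triple helix of fibrillar collagen, MMP1 rose. Its tested probe set (MmuSTS.921.1.S1_at) read 386, 517 and 303 in PGF2alpha replicates 1 to 3 and 59.4, 75.6 and 92.8 in vehicle replicates 4 to 6. The lowest treated array was thus well above the highest vehicle array, and PGF2alpha replicate 2 was the highest. The group means were 402 ± 108 and 75.9 ± 16.7 (SD, n = 3), a difference of 1.91 on the log2 scale (SE 0.253, adjusted p = 0.00732). The difference was 1.63 within run 1 and 2.49 within run 2. The other MMP1 probe set, below the filter, read 208, 333 and 123 against 14.5, 40.04 and 65.6, in the same order of treated arrays, with 1.68 and an adjusted p of 0.0773 when no filter was applied. The vehicle signals lay below the median of every array, so the size of the fold is uncertain. With the filter kept as set on all 6 arrays, the call for MMP1 held without each array in turn (adjusted p from 0.00472 to 0.0461). MMP1 met that filter only through the treated arrays, so these values do not cover the choice of probe sets. Within run 1 alone the call was lost (adjusted p = 0.0925). MMP8, the collagenase of neutrophils, and MMP13 stayed below the filter, with 77.6, 56.9 and 76.2 against 87.3, 41.0 and 51.4 for MMP8 and 158, 97.8 and 15.6 against 17.0, 68.0 and 34.1 for MMP13.

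The gelatinases MMP2 and MMP9 cleave denatured collagen and the type IV collagen of basement membranes. MMP9 (MmugDNA.17819.1.S1_at) read 633, 1411 and 488 in the PGF2alpha arrays and 159, 91.0 and 172 in the vehicle arrays. The groups did not overlap, and PGF2alpha replicate 2 stood far above the other two. MMP9 rose by 2.18 (SE 0.361, adjusted p = 0.0142), from 141 ± 43.6 to 844 ± 496 (SD, n = 3). The difference was 1.84 within run 1 and 2.87 within run 2. Its call also held without each array in turn (adjusted p from 0.00609 to 0.0477) but was lost within run 1 alone (0.0736). MMP2 (MmuSTS.1520.1.S1_at), which stromal cells make in many tissues, read 4121, 3956 and 5066 against 3864, 3307 and 3370. These groups too did not overlap, but the difference of 0.31 (95% interval -0.02 to 0.64) did not pass (adjusted p = 0.269).

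Of the stromelysins, matrilysins and metalloelastase, MMP10 rose. MMP10 (stromelysin-2, MmuSTS.919.1.S1_at), which cleaves proteoglycans and activates other MMP precursors, read 357, 880 and 158 against 28.2, 26.4 and 39.3. The treated arrays spread more than 5-fold among themselves, and the vehicle arrays all lay below the pseudocount of 40. The difference was 2.55 (SE 0.487, adjusted p = 0.0235), with 1.95 within run 1 and 3.75 within run 2, and its size is uncertain because of the low vehicle signals. The call for MMP10 was lost without any array other than PGF2alpha replicate 3 (PGF2alpha replicates 1 and 2, vehicle replicates 4, 5 and 6), with adjusted p from 0.0617 to 0.0784. MMP10 met the filter only through the treated arrays, so these values do not cover the choice of probe sets. With no filter its adjusted p by limma was 0.0417. MMP11 (stromelysin-3) read 311, 373 and 305 against 58.1, 206 and 137, groups that did not overlap, with a difference of 1.18 (95% interval 0.45 to 1.91, adjusted p = 0.0719). It passed without vehicle replicate 5 (adjusted p = 0.0492) and with array weights (0.0448). The 2 tested probe sets of MMP7, the matrilysin of epithelia, disagreed in sign, at 1.04 (adjusted p = 0.229) and -0.14 (adjusted p = 0.717). MMP3 (stromelysin-1), MMP12 (the macrophage elastase) and MMP26 stayed below the filter, MMP3 at 78.0, 101 and 49.6 against 39.0, 47.2 and 54.9 and MMP12 at 18.0, 27.9 and 44.9 against 7.72, 23.0 and 27.7.

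**Figure D2:**
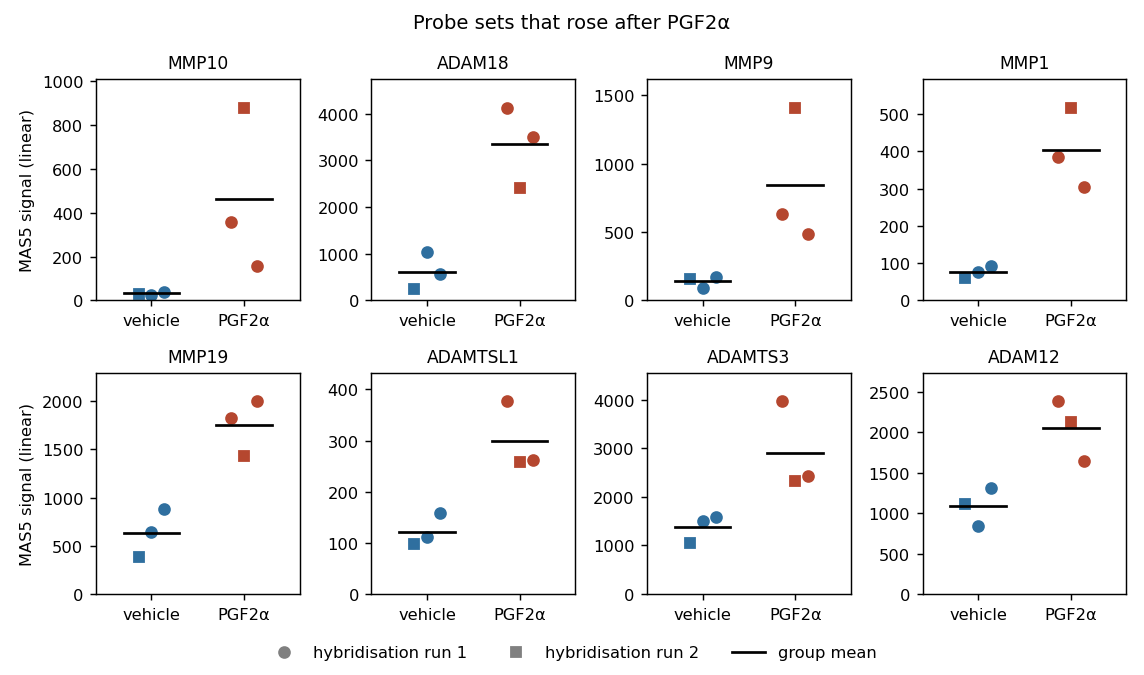
MAS5 signal (linear y axis from 0, a scale per panel) of the 8 member probe sets that rose, 1 point per array with circles for run 1 and squares for run 2, vehicle in blue and PGF2alpha in red, and a line at each group mean (n = 3). In each panel the 3 treated points lie above the 3 vehicle points, and in MMP1, MMP9 and MMP10 the highest is PGF2alpha replicate 2 (517, 1411 and 880).

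MMP19, a secreted MMP of basement membranes and inflamed tissue, was the other MMP that rose. It read 1827, 1432 and 1997 against 383, 644 and 882 (MmugDNA.17553.1.S1_at). Unlike MMP1, MMP9 and MMP10, its treated arrays lay close together and PGF2alpha replicate 3 was the highest. MMP19 rose by 1.46 (SE 0.271, adjusted p = 0.0212), from 636 ± 250 to 1752 ± 290 (SD, n = 3), with 1.30 within run 1 and 1.80 within run 2. Its call was lost without PGF2alpha replicate 1 or 2 or vehicle replicate 5 (adjusted p from 0.0545 to 0.0749), and its other probe set stayed below the filter, at no more than 94.4 on any array. MMP23 and MMP28, tested in the same group of other MMPs, stood at 0.19 (adjusted p = 0.674) and -0.20 (adjusted p = 0.625).

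Of the membrane-type MMPs, which act at the cell surface, 0 of 8 tested probe sets passed, and 3 had a positive and 5 a negative difference. Beside 5.01% of all tested probe sets, none passing among so few is no result about this group. MMP14 (MT1-MMP), the activator of the MMP2 precursor, had 3 tested probe sets. The brightest (MmuSTS.1507.1.S1_at) read 711, 289 and 496 against 205, 181 and 213, without overlap, a difference of 1.09 (95% interval 0.45 to 1.73, adjusted p = 0.0598). It passed without PGF2alpha replicate 2 (adjusted p = 0.0397) and with all arrays scaled to a common median (adjusted p = 0.0464), and the difference was 1.43 within run 1 and 0.42 within run 2. The other MMP14 probe sets read 0.86 (adjusted p = 0.111) and 0.20 (adjusted p = 0.700). MMP15 (132, 128 and 167 against 258, 214 and 206) and MMP25 (195, 208 and 140 against 280, 304 and 261) were lower in all treated arrays, at -0.55 (adjusted p = 0.192) and -0.55 (adjusted p = 0.169). MMP16 was lower in all treated arrays in both of its tested probe sets, at -0.76 (adjusted p = 0.0988) and -0.90 (adjusted p = 0.139). The former, which met the filter only through the vehicle arrays, passed the test without a variance trend (adjusted p = 0.0497). The latter passed without PGF2alpha replicate 3 (adjusted p = 0.0423). With no filter their adjusted p was 0.206 and 0.254. MMP14 thus lay on the other side of zero from MMP15, MMP16 and MMP25; the difference between them was not tested.

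The summed signal of 9 neutrophil markers was 22814, 29757 and 12083 in PGF2alpha replicates 1 to 3 and 3736, 6833 and 3517 in the vehicle arrays, with the treated arrays in the order of MMP1, MMP9 and MMP10. The lymphocyte marker sum had that order too (35595, 40886 and 24786 against 14979, 14417 and 11198). Most of its treated signal was GNLY, at 21587, 30861 and 15555 against 1973, 2934 and 3322. The other tested lymphocyte markers, GZMA and GZMB, had other orders of the treated arrays, and GZMA was lower there (1953, 1183 and 1940 against 2616, 3584 and 2873). Of the neutrophil markers 3 were tested and all 3 rose, S100A8 by 5.00 (adjusted p = 0.00142), S100A9 by 5.66 (adjusted p = 0.00165) and LCN2 by 1.34 (adjusted p = 0.0441). LCN2 was the largest part of the neutrophil sum on every array. It read 11367, 12180 and 7006 in PGF2alpha replicates 1 to 3 and 3056, 6486 and 2954 in vehicle replicates 4 to 6. S100A8 (4720, 6709 and 2231) and S100A9 (6116, 10253 and 2403) made up most of the rest in the treated arrays. The LCN2 call was lost without PGF2alpha replicate 1 or 2 or vehicle replicate 4 or 6 (adjusted p from 0.130 to 0.160). The LCN2 call was also lost with the hybridisation run as a block (adjusted p = 0.0565), with quantile normalization (0.0503), with no filter (0.0750), without a variance trend (0.0860) and with robust estimation (0.0563). S100A12, MPO, ELANE and FPR1 lay below the median of every array, as did MMP8. The summed signal of 14 macrophage and monocyte markers was 52539, 86287 and 58538 against 36019, 21312 and 32452, in another order of the treated arrays. The largest part of that sum was LYZ (24759.3, 52126.5 and 28125.2 in PGF2alpha replicates 1 to 3), which did not pass (adjusted p = 0.104). Of these 14 tested markers 7 rose and 0 fell. Their leading genes were MRC1 (2.95, adjusted p = 0.000195), MARCO (2.67, adjusted p = 0.00736), CD14 (1.23, adjusted p = 0.0212) and VSIG4 (1.34, adjusted p = 0.0235). MRC1, MARCO and CD14 had the treated arrays in the order of MMP1, MMP9 and MMP10, and VSIG4 did not. The calls for CD14 and VSIG4 were lost without some arrays (CD14: PGF2alpha replicates 1 and 2 and vehicle replicate 6, adjusted p from 0.0589 to 0.0911; VSIG4: PGF2alpha replicate 2 and vehicle replicates 5 and 6, adjusted p from 0.0636 to 0.0838, and without a variance trend, 0.0523). The part of these cells in the MMP differences was not tested.

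**Figure D3:**
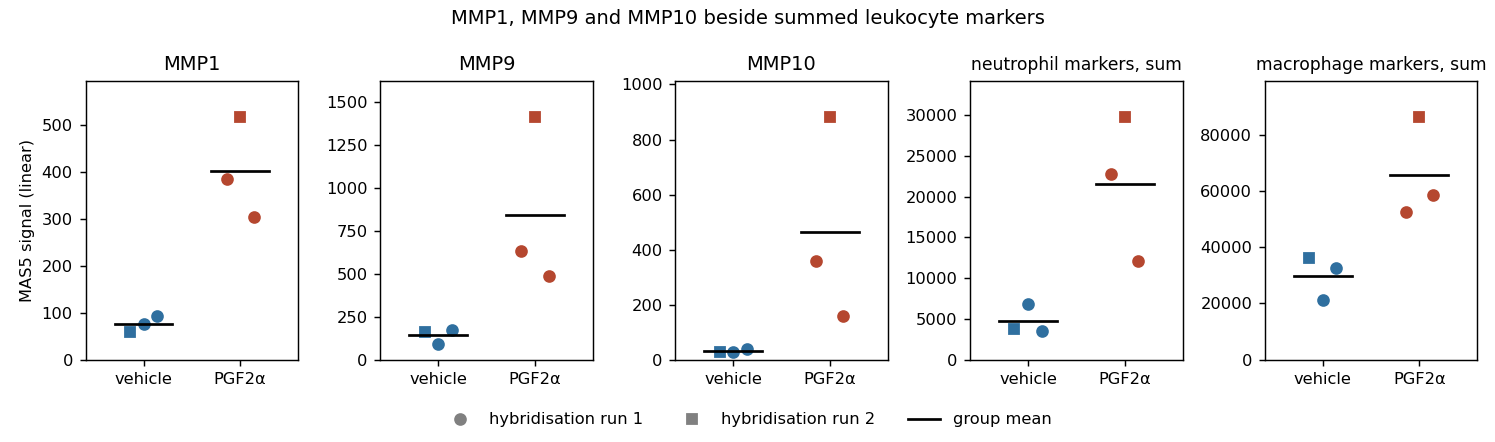
MAS5 signal (linear y axis from 0) of MMP1, MMP9 and MMP10 beside the summed signals of 9 neutrophil and 14 macrophage markers, 1 point per array with circles for run 1 and squares for run 2, vehicle in blue and PGF2alpha in red, and a line at each group mean (n = 3). PGF2alpha replicate 2 is the highest array in all 5 panels, with sums of 29757 and 86287.

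Of the ADAMs with a protease site, 1 of 12 tested probe sets, of ADAM12, passed, beside 5.01% of all tested probe sets. ADAM12 (meltrin alpha), a protease of fusing and mesenchymal cells, read 2383, 2133 and 1652 against 1116, 847 and 1311 in the probe set that passed (MmuSTS.2710.1.S1_at). The groups did not overlap in any of its 3 probe sets. That probe set rose by 0.90 (SE 0.202, adjusted p = 0.0393), with 0.89 within run 1 and 0.91 within run 2, and the others stood at 0.60 (adjusted p = 0.0939) and 0.59 (adjusted p = 0.115). The call was lost on leaving out any array but PGF2alpha replicate 3 (PGF2alpha replicates 1 and 2 and vehicle replicates 4, 5 and 6, adjusted p from 0.0649 to 0.133), with no filter (0.0587) and without a variance trend (0.0757). Without PGF2alpha replicate 3 all 3 ADAM12 probe sets passed, with adjusted p of 0.0234, 0.0299 and 0.0482. With array weights MmugDNA.11432.1.S1_at passed as well (adjusted p = 0.0449).

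ADAM10, the sheddase of Notch and many growth factor precursors, had a positive difference in each of its 3 probe sets, from 0.27 to 0.38, with none past the test. The brightest of them read 7429, 8607 and 7239 against 6592, 6008 and 6652, a difference of 0.27 (95% interval -0.02 to 0.56, adjusted p = 0.271). ADAM15 stood at 0.35 (adjusted p = 0.195) and 0.19 (adjusted p = 0.683), and ADAM9 at 0.18 (adjusted p = 0.508) and 0.04 (adjusted p = 0.934). For the brighter ADAM9 probe set the 95% interval of -0.13 to 0.50 leaves out a change of 2-fold in either direction. ADAM19, which sheds neuregulins, read 364, 645 and 599 against 273, 378 and 320, at 0.64 (adjusted p = 0.156), and ADAM21 read 125, 96.9 and 137 against 156, 161 and 140, at -0.28 (adjusted p = 0.572).

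ADAM18, a sperm surface protein of the testis that lacks a protease site, rose in 1 of its 2 probe sets. MmugDNA.18099.1.S1_at read 4126, 2403 and 3507 against 236, 1030 and 573, with no overlap and with PGF2alpha replicate 2 the lowest of the treated arrays. The means were 3345 ± 873 and 613 ± 399 (SD, n = 3), a difference of 2.55 (SE 0.425, adjusted p = 0.0148), with 2.25 within run 1 and 3.15 within run 2. The other ADAM18 probe set (MmugDNA.40438.1.S1_at) stayed below the filter at 16.7, 20.6 and 70.7 against 11.7, 48.2 and 24.5, so the probe sets differ, and which of them reads the ADAM18 transcript was not tested. The call was lost without PGF2alpha replicate 1 (adjusted p = 0.0594) or replicate 2 (adjusted p = 0.0502). ADAM22, which also lacks a protease site, had 5 probe sets, none tested.

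ADAMTS5, an aggrecanase that also cleaves versican, fell, and its 4 tested probe sets moved together. MmugDNA.30736.1.S1_at read 1310, 1247 and 2943 against 3877, 3994 and 4485. MmugDNA.36877.1.S1_at read 429, 481 and 816 against 1418, 1391 and 1425, vehicle arrays that hardly differed from each other. In both, and in the remaining pair of probe sets, all treated arrays lay below all vehicle arrays and PGF2alpha replicate 3 was the nearest to them. The differences were -1.26 (SE 0.291, adjusted p = 0.0417) and -1.29 (SE 0.224, adjusted p = 0.0167), -1.14 for MmugDNA.5694.1.S1_at (adjusted p = 0.0361) and -0.86 for MmugDNA.19155.1.S1_at (adjusted p = 0.104). Within run 1 they ran from -1.19 to -0.87, and within run 2 from -1.61 to -0.83. The last of these did not pass with all arrays and passed without PGF2alpha replicate 3 (adjusted p = 0.0154). The calls of the other probe sets were lost without PGF2alpha replicates 1 and 2 and vehicle replicate 6, with adjusted p from 0.0593 to 0.145. For MmugDNA.30736.1.S1_at and MmugDNA.5694.1.S1_at they were also lost without vehicle replicates 4 and 5 (adjusted p from 0.0782 to 0.0955), with no filter (0.0678 and 0.0669) and without a variance trend (0.0813 and 0.0659).

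ADAMTS6, a secreted protease of the same family, fell in its tested probe set (MmugDNA.33270.1.S1_at), which read 424, 358 and 678 against 869, 1008 and 1019. The pattern over the arrays was that of ADAMTS5, with PGF2alpha replicate 3 nearest to the vehicle arrays. It fell by 0.98 on the log2 scale (SE 0.224, adjusted p = 0.0410), with -0.87 within run 1 and -1.19 within run 2. The call was lost on leaving out any array but PGF2alpha replicate 3 (PGF2alpha replicates 1 and 2 and vehicle replicates 4, 5 and 6, adjusted p from 0.0847 to 0.138), with no filter (0.0687) and without a variance trend (0.0742), and without PGF2alpha replicate 3 the adjusted p was 0.00677. Its other probe set lay below the filter (13.0 to 123).

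In luteal cell markers too, PGF2alpha replicate 3 was the treated array nearest to the vehicle arrays. The summed signal of 7 markers was 77977, 85979 and 141422 in PGF2alpha replicates 1 to 3 and 159873, 188921 and 172459 in the vehicle arrays, and 2 of 7 tested markers fell and 0 rose. These were STAR at -0.67 (adjusted p = 0.0497, lost on leaving out any array but PGF2alpha replicate 3: PGF2alpha replicates 1 and 2 and vehicle replicates 4, 5 and 6, adjusted p from 0.0983 to 0.169) and CYP17A1 at -1.46 (adjusted p = 0.0299, lost without PGF2alpha replicates 1 and 2, adjusted p 0.1004 and 0.113). The STAR call was also lost with the hybridisation run as a block (adjusted p = 0.0572), with all arrays scaled to a common median (0.0590), at a pseudocount of 10 (0.0509), without probe sets that can cross-hybridise (0.0506), with no filter (0.193) and without a variance trend (0.120), and the CYP17A1 call without a variance trend (0.0637). The part of luteal cells in the ADAMTS5 and ADAMTS6 differences was not tested.

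**Figure D4:**
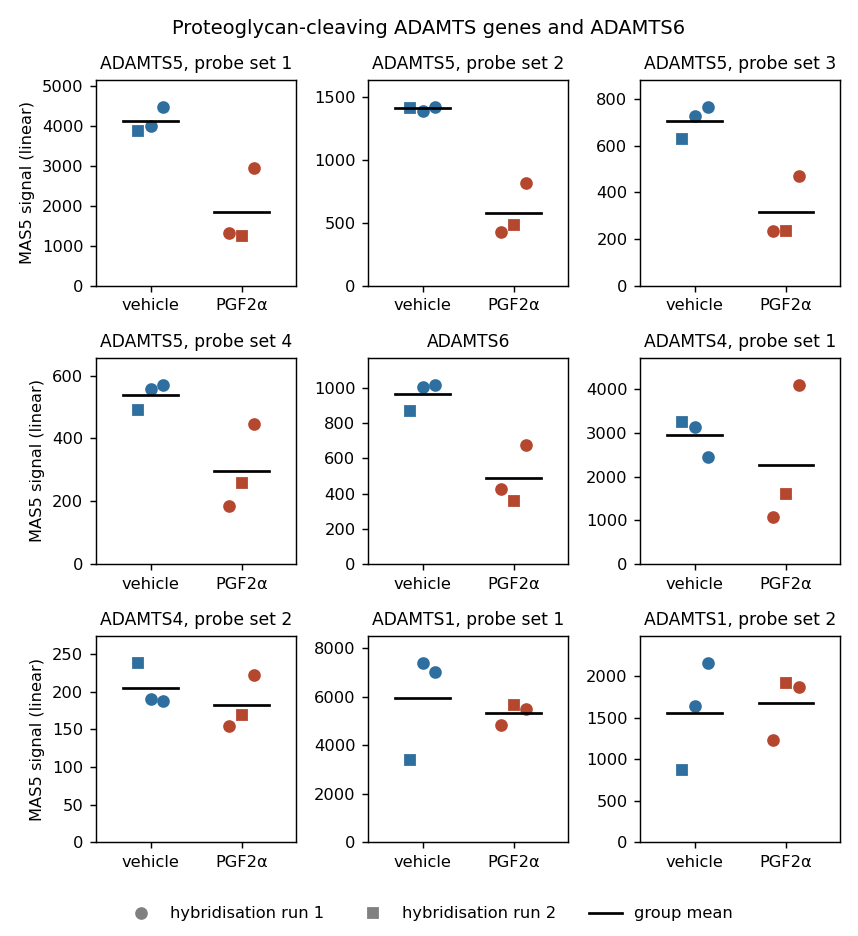
MAS5 signal (linear y axis from 0, a scale per panel) of the tested probe sets of ADAMTS5, ADAMTS6, ADAMTS4 and ADAMTS1, numbered by falling vehicle mean, 1 point per array with circles for run 1 and squares for run 2, vehicle in blue and PGF2alpha in red, and a line at each group mean (n = 3). The treated points lie below the vehicle points in the 5 panels of ADAMTS5 and ADAMTS6, and the groups overlap in the 4 panels of ADAMTS4 and ADAMTS1.

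The other proteoglycan-cleaving ADAMTS genes did not pass. ADAMTS1, a versican-cleaving protease that progesterone induces in ovulating follicles, read 4856, 5655 and 5486 against 3388, 7395 and 7040 in its brighter probe set and 1234, 1921 and 1867 against 874, 1641 and 2159 in the other. In both probe sets vehicle replicate 4 was the lowest array. The differences were -0.08 (95% interval -0.68 to 0.53, adjusted p = 0.909) and 0.17 (95% interval -0.53 to 0.86, adjusted p = 0.815). Within run 1 they were -0.48 and -0.30, and within run 2, which holds vehicle replicate 4, they were 0.73 and 1.10, so the sign differed between runs. ADAMTS4 (MmunewRS.1070.1.S1_at), an aggrecanase like ADAMTS5, read 1079, 1609 and 4104 against 3252, 3129 and 2454. PGF2alpha replicate 3 was the highest of all 6 arrays there and the other treated arrays the lowest. The difference was -0.59 (adjusted p = 0.446) with all arrays and passed without PGF2alpha replicate 3 (adjusted p = 0.0197). The other tested ADAMTS4 probe set (MmugDNA.3862.1.S1_at) stood at -0.15 (adjusted p = 0.757) and passed in 0 of 17 alternatives. The 5 tested probe sets of ADAMTS9 had differences from -0.35 to 0.54 with both signs, and none passed. ADAMTS15 stood at 0.18 (adjusted p = 0.648) and ADAMTS8 at -0.05 (adjusted p = 0.972).

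Of the procollagen-processing ADAMTS genes, ADAMTS3 rose and ADAMTS2 did not pass. ADAMTS3, which removes the amino-terminal propeptide of procollagen and activates the lymphangiogenic factor VEGFC, read 3962, 2332 and 2431 against 1057, 1500 and 1586 (MmuSTS.2740.1.S1_at). The groups did not overlap, with PGF2alpha replicate 1 the highest. It rose by 1.03 (SE 0.236, adjusted p = 0.0406), from 1381 ± 284 to 2909 ± 914 (SD, n = 3), with 0.99 within run 1 and 1.11 within run 2. The call was lost on leaving out any array but PGF2alpha replicate 3 (PGF2alpha replicates 1 and 2 and vehicle replicates 4, 5 and 6, adjusted p from 0.0786 to 0.115), with no filter (0.0635) and without a variance trend (0.0796). ADAMTS2, which carries out the same trimming, had the opposite sign in its 2 tested probe sets, at -0.65 (adjusted p = 0.231) and -0.80 (adjusted p = 0.275). The brighter of these read 427, 251 and 529 against 445, 722 and 766 and overlapped between the groups; the difference between ADAMTS3 and ADAMTS2 was not tested.

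In the remaining ADAMTS genes, ADAMTS7, which degrades cartilage oligomeric matrix protein, stood at 0.57 (adjusted p = 0.317) and passed without vehicle replicate 5 (adjusted p = 0.0408). ADAMTS10, a protease that binds fibrillin, stood at 0.18 and 0.07, and ADAMTS13, the protease of von Willebrand factor, at 0.09 with a 95% interval of -1.26 to 1.44. ADAMTS18 read 109, 80.2 and 71.3 against 184, 240 and 126, at -0.79 (adjusted p = 0.160).

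ADAMTS-like proteins resemble ADAMTS proteases but lack the protease part. ADAMTSL1 (punctin) rose in 1 of its 3 tested probe sets (MmugDNA.36778.1.S1_at), which read 376, 258 and 263 against 98.1, 111 and 158, a difference of 1.06 (SE 0.244, adjusted p = 0.0409). Its call was lost without any single array (adjusted p from 0.0523 to 0.149) and with no filter (0.0923). Another ADAMTSL1 probe set, which met the filter only through the treated arrays, read 245, 196 and 157 against 90.5, 19.98 and 100.2, at 1.20 (adjusted p = 0.105). The third read -0.15 (adjusted p = 0.787), so the probe sets disagreed. ADAMTSL4 stood at 0.46 (adjusted p = 0.330) and ADAMTSL2 at -0.18 (adjusted p = 0.757).

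The TIMPs did not pass in any of 6 probe sets, with differences from -0.07 to 0.45. Of all tested probe sets 5.01% passed, so none among 6 is near that share. TIMP1, an inhibitor of most MMPs, had 3 probe sets. The brightest (MmugDNA.5715.1.S1_at) read 63608, 64408 and 67996 against 67341, 73338 and 62373. It ranked from 1 to 3 among all probe sets on every array, at the top of the measured range, and whether signals there reach a ceiling was not tested. The groups overlapped. The difference was -0.05 (95% interval -0.29 to 0.19, adjusted p = 0.846). The next (MmugDNA.34193.1.S1_at) read 2334, 2340 and 2334 against 1946, 1721 and 2022, without overlap, at 0.30 (95% interval -0.01 to 0.60, adjusted p = 0.245), and the last stood at 0.17 (95% interval -0.16 to 0.50, adjusted p = 0.550).

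TIMP2, which inhibits MMP2 and also takes part in its activation by MMP14, read 3352, 3207 and 2791 against 2800, 1748 and 2360 in one probe set and 2806, 2581 and 2298 against 2656, 1712 and 2020 in the other. Both groups overlapped, and vehicle replicate 5 was the lowest array in both. The differences were 0.45 (95% interval 0.03 to 0.87, adjusted p = 0.206) and 0.28 (95% interval -0.13 to 0.69, adjusted p = 0.423). TIMP3, the TIMP that binds to matrix and inhibits ADAM and ADAMTS proteases, read 1243, 1261 and 1620 against 2152, 852 and 1582. Its vehicle arrays spread more widely than its treated arrays. The difference was -0.07 (95% interval -0.73 to 0.60, adjusted p = 0.929), with 0.28 within run 1 and -0.75 within run 2, so its sign differed between runs.

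**Figure D5:**
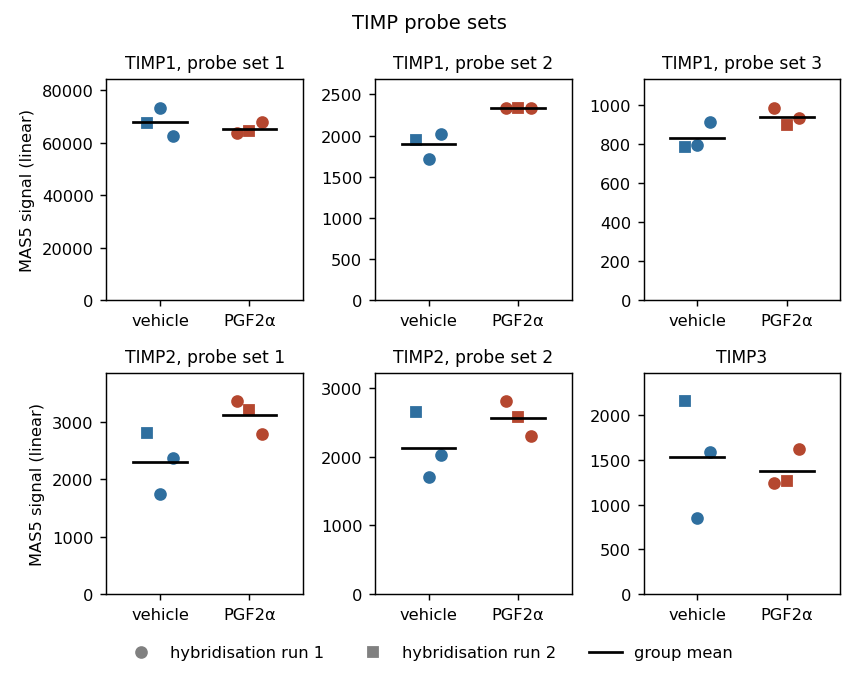
MAS5 signal (linear y axis from 0, a scale per panel) of the 6 TIMP probe sets, numbered by falling vehicle mean, 1 point per array with circles for run 1 and squares for run 2, vehicle in blue and PGF2alpha in red, and a line at each group mean (n = 3). The groups overlap in all panels except that of the second TIMP1 probe set, where the treated arrays read 2334 to 2340 and the vehicle arrays 1721 to 2022.

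Of 16 genes with more than 1 tested probe set, 11 had the same sign in all of them and 5 (ADAMTS1, ADAMTS9, ADAMTSL1, MMP7 and TIMP1) had both. The 44 probe sets below the filter had signals from 1.84 to 333. They included every probe set of 15 genes, namely MMP3, MMP8, MMP12, MMP13, MMP20, MMP21, MMP26, MMP27, ADAM20, ADAM22, ADAMTS14, ADAMTS17, ADAMTS19, ADAMTS20 and ADAMTSL5. In 0 of the 44 were all treated arrays at least 2-fold above or below all vehicle arrays, beside 0.728% and 0.809% of the 25822 probe sets below the filter. When no filter was applied the smallest adjusted p among them by limma was 0.0773, that of the second MMP1 probe set.

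Of 17 tested genes that activate or restrain these proteases from outside the families, 4 rose and 0 fell, with a median of 0.49. Over all 9980 tested genes the median was -0.02, and 380 rose and 232 fell. This and the other lists were chosen with earlier results of these data known, so their counts are not a test against all genes. PLAUR, the urokinase receptor, rose by 2.03 (adjusted p = 0.00860) and PLAU, the urokinase that makes plasmin, an activator of MMP precursors, by 1.54 (adjusted p = 0.00963, lost without PGF2alpha replicate 2 at 0.0541). BMP1, the procollagen C-proteinase, rose by 0.88 (adjusted p = 0.0355) and the lysosomal protease CTSL by 1.23 (adjusted p = 0.0408). BMP1 lost its call on leaving out any array but PGF2alpha replicate 3 (PGF2alpha replicates 1 and 2 and vehicle replicates 4, 5 and 6, adjusted p from 0.0861 to 0.138), and CTSL without the 3 PGF2alpha arrays or vehicle replicate 6 (adjusted p from 0.0676 to 0.148). With no filter BMP1 (0.0814) and CTSL (0.0721) lost their calls, and CTSL also without a variance trend (0.0830) and with all arrays scaled to a common median (0.0529).

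Among 16 tested matrix substrates 4 rose and 0 fell, with a median of 0.20. Versican (VCAN), a substrate of ADAMTS1, ADAMTS4 and ADAMTS5, rose from 1386, 2640 and 2593 in the vehicle arrays to 5152, 5155 and 4404 in the treated arrays, by 1.19 (adjusted p = 0.0267). The differences of the others were 1.13 for the type VI collagen gene COL6A3 (adjusted p = 0.0119), 1.63 for TNC, the gene of tenascin-C (adjusted p = 0.0256), and 0.64 for DCN, that of decorin (adjusted p = 0.0421). Each of these calls was lost without PGF2alpha replicates 1 and 2, and some also without vehicle replicates (VCAN without replicate 6, TNC and DCN without replicates 4 and 5), with adjusted p from 0.0514 to 0.144. Without a variance trend VCAN (0.0582), TNC (0.0528) and DCN (0.110) lost their calls, and DCN also with quantile normalization (0.0636), with no filter (0.154) and with array weights (0.0559).

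Of 13 tested substrates and partners of ADAM sheddases, 1 rose and 0 fell, with a median of 0.06. MET, the hepatocyte growth factor receptor, rose by 1.61 (adjusted p = 0.0314, lost without PGF2alpha replicate 1 or 2 or vehicle replicate 4 or 6, adjusted p from 0.0644 to 0.116, with no filter, 0.0513, and without a variance trend, 0.0636). RHBDF2, the partner that matures ADAM17, stood at 0.78 (adjusted p = 0.0810), and NOTCH2 at 0.56 (adjusted p = 0.128). The growth factor precursor AREG read 2575, 8748 and 11179 against 12919, 21997 and 19212, at -1.47 (adjusted p = 0.110), and passed without PGF2alpha replicate 3 (adjusted p = 0.0437).

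Of 17 tested transcription and cytokine regulators of these genes 2 rose and 1 fell, with a median of 0.31. IL1RN, which encodes an antagonist of interleukin-1, rose by 3.11 (adjusted p = 0.00736) and the oncostatin M receptor OSMR by 0.77 (adjusted p = 0.0138, lost without PGF2alpha replicate 1 or vehicle replicate 6, at 0.0603 and 0.0572). RUNX2, a transcription factor known for driving MMP13 in cartilage, fell by 0.98 on the log2 scale (adjusted p = 0.0177, lost without PGF2alpha replicates 1 and 2 and vehicle replicate 6, adjusted p from 0.0680 to 0.0722). JUNB stood at 0.78 (adjusted p = 0.0650) and passed without PGF2alpha replicate 1 (adjusted p = 0.0347).

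Of 10 tested endothelial markers 1 rose (CLDN5, 0.90, adjusted p = 0.0266, lost without PGF2alpha replicate 1 or 2 or vehicle replicate 4 or 6, adjusted p from 0.0630 to 0.103, and without a variance trend, 0.0544), with a median of 0.10. Of 8 fibroblast markers 1 rose (DCN, above), with a median of 0.00, and of 5 pericyte and smooth muscle markers and 6 markers of mast cells, platelets and red cells 0 passed. Of 3 tested lymphocyte markers, with a median of 0.30, GNLY rose (3.01, adjusted p = 0.00186). GZMA stood at -0.85 (adjusted p = 0.0584), with all treated arrays below all vehicle arrays, and GZMB at 0.30 (adjusted p = 0.590).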

How the data were processed

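RNA of the corpus luteum was measured on 6 arrays, 3 per group. The authors deposited one linear intensity (signal) for each probe set, from MAS5 per the submitters' processing notes, with no version given in the sources used here. Their trimmed mean, leaving out 2% at each end, was 500.0 on every array, so they were used as deposited. The scanner experiment files gave chip type and hybridisation run. Symbols came from a platform annotation that can be old: 24956 probe sets that are not controls had 1 symbol, 361 had several and 27535 none. No genome or sequence table was used.

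Values were taken as log2(signal + 40), 40 being about the 25th percentile of all values. Probe sets at or above their array's median on at least 3 arrays were tested (26944; 99 controls left out) with limma 3.58.1 in R 4.3.3 (two-sided, eBayes with a trend and no covariates). P-values were adjusted by Benjamini and Hochberg's method over all of them, at a threshold of 0.05. In lists a gene was its tested probe set of highest mean. Members were named where they passed or stood in a preset list of genes, with the rest of their role group; of the other lists, up to 4 genes of smallest p were named. Members and lists were chosen with earlier results of these data known. The comparison was tested on simulated data, in which 200 of 26944 probe sets were altered: 25% of those altered 2-fold were called and 62% of those altered 4-fold, and 2 of 89 calls were false. The simulated noise was normal and independent between probe sets, without shifts shared by an array, so these shares need not hold for the real arrays. The number of arrays limits the precision. Alternatives covered normalization, pseudocount, filter, variance model, run, cross-hybridisation and each array left out.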

Additional observations from a re-analysis of the deposited data

How the results depend on the processing

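No paired analysis was possible because the replicate numbers of the groups do not overlap. With all arrays 1351 probe sets passed, of them 8 member probe sets higher and 4 lower. Without a filter these counts were 826, 5 and 1, without a variance trend 669, 6 and 2, and within hybridisation run 1 alone 51, 1 and 0. With the filter at the 70th percentile 5 member probe sets were higher. Leaving out 1 array gave 223 (without PGF2alpha replicate 2) to 1903 (without PGF2alpha replicate 3) in all, 2 to 9 higher and 0 to 7 lower; the lower count was 0 without PGF2alpha replicate 1 or 2 or vehicle replicate 6. The leave-one-out and run 1 counts rest on fewer arrays, and the count without a filter on more tests; otherwise the cause was not tested. With array weights 1931 passed, and 10 members were higher and 4 lower. The 12 member probe sets that passed kept their direction in every alternative that tested them. In each the groups did not overlap, so leaving out arrays or changing pseudocount, filter or variance model could not reverse the sign.

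Among named members, 10 probe sets changed sign under some alternative, none with an adjusted p below 0.303 there. ADAM9 (MmugDNA.23201.1.S1_at) stood at -0.018 with array weights and -0.0083 within run 1, and between -0.088 and 0.14 with 1 array left out. With 1 array left out, ADAMTS1 ranged from -0.44 to 0.12 (MmuSTS.2738.1.S1_at) and from -0.19 to 0.44 (MmugDNA.880.1.S1_at, -0.30 within run 1). ADAMTS10 (MmugDNA.31336.1.S1_at) ranged from -0.057 to 0.31 and was -0.094 within run 1, and ADAMTS13 ranged from -0.50 to 0.44 and was -0.23 with array weights. ADAMTS8 ranged from -0.39 to 0.59, with 0.039 at a pseudocount of 160 and 0.12 with array weights. ADAMTS9 (MmugDNA.13481.1.S1_at) ranged from -0.25 to 0.12, ADAMTSL1 (MmugDNA.35702.1.S1_at) from -0.28 to 0.0066 (0.0076 within run 1), TIMP1 (MmugDNA.5715.1.S1_at) from -0.11 to 0.011 and TIMP3 from -0.42 to 0.22 (0.28 within run 1). Run 2 has 1 array a group and gave values only.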
